A study of Mus musculus with 2 samples.

Results

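The RNAs described here are 8 long noncoding RNAs of mouse embryonic fibroblasts (MEFs): Malat1 and Neat1, which stay in the nucleus, Gas5, Snhg1 and Snhg3, whose introns carry small nucleolar RNAs (snoRNAs), and Dleu2, Pvt1 and Miat. They were chosen by gene name, and every probe set annotated to 1 of these genes and to no other was used. This gave 29 of the 45037 probe sets on the array, for 8 of the 18193 genes that the annotation names. Primary MEFs from whole C57BL/6 embryos at E13.5, called young at passage 2, were transfected with GapmeR Control or with GapmeR AK156230, and total RNA was hybridised to 1 Affymetrix mouse expression array per condition. A GapmeR is an antisense oligonucleotide with locked nucleic acid ends that makes RNase H cut the RNA it pairs with. GapmeR AK156230 is directed at the long noncoding RNA AK156230, and GapmeR Control is a scrambled sequence with no target. Strain, embryonic day and passage were the same on both arrays, and the MEFs were primary cells and not an established line. The comparison asks how the 8 RNAs differed between the 2 transfections.

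Long noncoding RNAs act as RNA and are not templates for large proteins. Malat1 gathers in nuclear speckles, which store splicing factors, and Neat1 is the scaffold of paraspeckles, nuclear bodies that form on its transcripts. In snoRNA host genes the snoRNAs are cut out of the introns and guide the chemical modification of ribosomal RNA, while the spliced exons leave the nucleus, are bound by ribosomes and are then removed by nonsense-mediated decay. Gas5 was named for its accumulation in cells that stop growing. Dleu2 is the precursor transcript of the microRNAs miR-15a and miR-16-1, Pvt1 lies beside the oncogene Myc, and Miat is a nuclear RNA best known from neurons.

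The 8 genes differ widely in what they carry, by the RefSeq genes of GRCm38.p6. Gas5 (chr1:161034601-161038539) and Snhg1 (chr19:8723487-8726326) each hold 8 snoRNA genes, and Snhg3 (chr4:132351933-132353686) holds 2. Malat1 (chr19:5795690-5802672) and Neat1 (chr19:5824708-5845480) are neighbours, 22.0 kb apart, and Malat1 holds the gene of the tRNA-like mascRNA at its end. Dleu2 (chr14:61602836-61682373) holds 2 microRNA genes. Pvt1 (chr15:62037986-62260215) is the longest of the 8 at 222 kb, Snhg3 the shortest at 1.75 kb, and Miat (chr5:112213228-112228948) lies between them.

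The start sites of the 3 snoRNA hosts are shown because 9 of their 10 probe sets, all bright, lay above 0. The 1 bright probe set of Miat, whose start is not printed, lay above 0 too (0.087). A start in a run of C and T is the known mark of RNAs whose translation follows growth signals. Each window runs from 50 bases before to 50 bases after the annotated start on the gene's strand. Capitals mark the longest run of C and T within the first 20 transcribed bases and any match to TATAAA on either strand. The sequences are RefSeq's, and the coordinates are GRCm38.p6: Gas5 chr1:161035116-161035215 on the plus strand (the second of its 2 annotated starts), Snhg1 chr19:8723437-8723536 on the plus strand and Snhg3 chr4:132353637-132353736 on the minus strand.
Gas5: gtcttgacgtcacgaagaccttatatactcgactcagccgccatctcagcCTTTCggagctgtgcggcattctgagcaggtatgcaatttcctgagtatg
Snhg1: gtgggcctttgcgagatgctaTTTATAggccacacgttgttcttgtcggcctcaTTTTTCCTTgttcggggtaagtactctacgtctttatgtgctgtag
Snhg3: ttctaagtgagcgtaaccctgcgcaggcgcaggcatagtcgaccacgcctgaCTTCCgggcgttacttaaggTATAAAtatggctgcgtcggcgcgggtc
The run of Gas5 is 5 bases long and begins at the first transcribed base, while at its other annotated start the longest run is 3 bases, from base 4, after a first base G. That of Snhg1 is 9 bases long from base 5, and that of Snhg3 is 5 bases long from base 3. Neither of these runs takes in the first transcribed base. Snhg1 begins with C and a run of 3 bases, and Snhg3 begins with G. Among all 32851 windows 32.8% had a run of 5 or more, 6.74% a run of 8 or more, and 2.51% began with C and a run of at least 5, as this Gas5 window does and as that of Miat, which holds no snoRNA gene, does with a run of 6. TATAAA was found in Snhg3 on the gene's strand, from base 23, and in Snhg1 on the opposite strand, and in 4.94% of all windows. The window of Dleu2, which holds no snoRNA gene, had it on the gene's strand from base 16. A match is a description of the letters and not of a bound site.

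The mature microRNAs of Dleu2 were not measured here. They are shown because they are what the transcript is known for, and because both carry the same seed. Capitals mark the seed, bases 2 to 8, and the sequences are RefSeq's, from chr14:61632075-61632096 and chr14:61631936-61631957 on the minus strand of GRCm38.p6.
miR-15a-5p: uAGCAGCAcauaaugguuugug
miR-16-5p: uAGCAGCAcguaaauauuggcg
The seeds of miR-15a-5p and miR-16-5p are identical.

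Values are MAS5 signals, a linear measure of brightness scaled per array, and every ratio is the signal with GapmeR AK156230 over that with GapmeR Control, as log2 with no offset. With 1 array per condition no difference below has a replicate check, and no test was possible. A difference was counted at 2-fold or more. Signals of different probe sets are set against each other only to find the brightest of a gene and through the array median. A probe set is called bright where it reached the array median on whichever array it was brighter. Sums over markers are compared between the arrays, and bright probe sets weigh most in them. The array medians were 54.8 (GapmeR Control) and 51.0 (GapmeR AK156230), and the log2 signals correlated at r = 0.97 over all probe sets. The median log2 ratio was -0.066, with quartiles of -0.30 and 0.17. As a scale for the values below, the spread of the log2 ratio between the brightest pair of probe sets of a gene was 0.28 (SD of 1 probe set, 5112 genes with both above the medians), which covers probes and not cultures. Scaling both arrays to the same median added 0.11 to every log2 ratio. No probe set is annotated to AK156230, so its knockdown could not be read. All 12 fibroblast markers were above the medians on both arrays, and with GapmeR AK156230 5 of the 12 were lower by at least 2-fold (summed signals 36844 and 24169). Of the markers of other cells, 7 of 9 leukocyte, 4 of 8 epithelial, 2 of 6 endothelial and 4 of 8 neural ones were bright. Lyz2 of leukocytes, for example, read 725 and 527, and Epcam of epithelium 148 and 103. Below the medians on both arrays were, among others, Ptprc (leukocytes), Cdh5 and Pecam1 (endothelium), and Cdh1 and Krt5 (epithelium). Past 2-fold were Cd68, Cd14, Krt18, Dsp and Kdr (higher) and Tubb3 and Sox2 (lower). The summed signals of 9 leukocyte markers were 1527 and 1503, those of 8 epithelial markers 516 and 927, those of 6 endothelial markers 186 and 227, and those of 8 neural markers 533 and 522. In RNA of a whole culture, fewer cells of a type and less RNA per cell cannot be told apart, and the part of cell makeup in the differences below was not tested.

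The label abundant held for some of the 8. All 7 probe sets of Malat1, all 4 of Gas5, all 5 of Snhg1 and the single one of Snhg3 were above the medians of both arrays. Neat1 had 1 of 2 above both medians, Pvt1 2 of 5 and Miat 1 of 2. Dleu2 had none of 3, so each Dleu2 signal was below the median of its array.

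**Figure D1:**
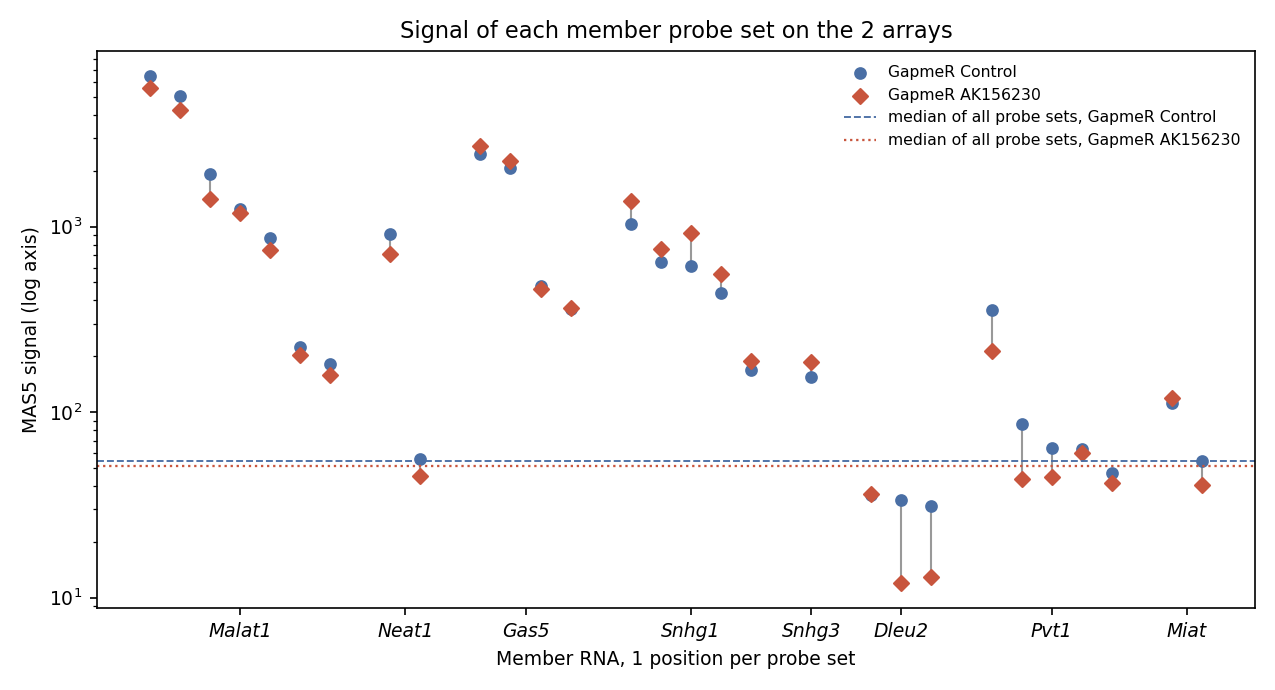
MAS5 signal (log axis) of each of the 29 member probe sets, ordered by control signal within a gene, with circles for GapmeR Control and diamonds for GapmeR AK156230. Horizontal lines give the median of all probe sets on each array (54.8 and 51.0). All 3 Dleu2 probe sets lie under both lines, and those of Malat1, Gas5, Snhg1 and Snhg3 lie above both.

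None of the 29 probe sets was higher by 2-fold or more, beside 1.45% of all probe sets, and 2 were lower by 2-fold or more, beside 3.28% (4.73% in either direction). Both belong to Dleu2 and are dim. Of the 24 bright member probe sets none was past 2-fold, beside 1.78% higher and 4.32% lower among all 23817 bright probe sets. Counts by sign are given by probe set for the genes with and without snoRNA genes. Of the 10 probe sets of the 3 snoRNA hosts 9 had a log2 ratio above 0, beside 42.2% of all probe sets and 44.7% of bright ones, and their median was 0.20. Of the 19 probe sets of the 5 other genes 17 were below 0, beside 57.8% of all and 55.3% of bright probe sets, and their median was -0.25. Bright genes annotated as long noncoding RNA leaned the same way. Of these 413 genes, each at its brightest probe set, 124 were above 0, and their median was -0.17. At the brightest probe set of each gene, Gas5, Snhg1 and Snhg3 were above 0, but so were Dleu2 (0.015) and Miat (0.087), and Malat1, Neat1 and Pvt1 were below 0. Malat1 gave 7 and Pvt1 5 of the 19 probe sets of the second class. Probe sets of 1 gene read the same RNA and are not replicates, and the genes of each class are few.

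Snhg1 had the largest increase of the 8 genes at the brightest probe set. The snoRNAs in its introns are box C/D snoRNAs, and its exons make an unstable RNA. Its brightest probe set (1433674_a_at) read 1027 with GapmeR Control and 1381 with GapmeR AK156230, a log2 ratio of 0.43. Probe set 1433675_at read 615 and 924, a log2 ratio of 0.59. Its ratio was matched or exceeded by 5.47% of all probe sets. The other three read 645 and 755 (log2 ratio 0.23), 436 and 558 (0.36), and 168 and 188 (0.17). All 5 were higher with GapmeR AK156230 and stayed so under each scaling, and they differed among themselves with an SD of 0.17.

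Gas5 differed less between the arrays. The brightest probe set, 1419291_x_at, read 2454 and 2715, a log2 ratio of 0.15, and 1449410_a_at read 2063 and 2271, a log2 ratio of 0.14. Probe set 1424843_a_at read 358 and 365 (0.028), and 1436222_at read 479 and 463 (-0.049), which turned to 0.056 where the arrays were scaled to the same median. The log2 ratios of Gas5 therefore lay from -0.049 to 0.15, less from 0 than the SD of 0.28 between probe sets of a gene. One further probe set, annotated to Gas5 together with the snoRNA gene Snord47 and left out for that reason, read 290 and 334 (0.21).

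Snhg3, host of the box H/ACA snoRNAs Snora73a and Snora73b, was read by 1 probe set. It read 154 and 187, a log2 ratio of 0.275, no larger than the SD of 0.276 between probe sets of a gene. The sign was the same under each scaling, and 17.5% of all probe sets had a ratio as high or higher.

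Malat1 was lower with GapmeR AK156230 at each of its 7 probe sets, by small amounts. The brightest, 1418189_s_at, read 6476 and 5584, a log2 ratio of -0.21, and 1418188_a_at read 5062 and 4266, a log2 ratio of -0.25. The largest difference was that of 1438403_s_at, at 1913 and 1409 (-0.44). The direction was thus the same at bright and at less bright probe sets. The others read 1242 and 1177 (-0.078), 872 and 749 (-0.22), 225 and 202 (-0.16), and 183 and 159 (-0.20). The SD of the 7 log2 ratios was 0.11. With the arrays scaled to the same median, 1429060_at, the one nearest 0, turned to 0.027 and the other 6 stayed below 0. The middle of the Malat1 ratios (-0.21) was within the quartiles of all probe sets. All Malat1 ratios but that of 1438403_s_at were less from 0 than the SD of 0.28 between probe sets of a gene.

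Neat1 was lower at both probe sets, and under each scaling. Probe set 1428083_at read 912 and 712, a log2 ratio of -0.36 or 1.28-fold lower, and 20.5% of all probe sets had a ratio as low or lower. Probe set 1442881_at read 56.1 and 45.4 (-0.30), the first above and the second below the median of its array. The probe sets were not assigned to the short or the long Neat1 transcript.

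Pvt1 had the largest decrease among the members with bright signal, and its 5 probe sets did not move alike. The brightest, 1452324_at, read 357 and 214, a log2 ratio of -0.74 or 1.67-fold lower, and 5.97% of all probe sets had a ratio as low or lower. Probe set 1427140_at read 86.0 and 43.7, a log2 ratio of -0.98 or 1.97-fold, just short of the 2-fold threshold. Both lay beyond the lower quartile of all probe sets. Probe set 1431351_at read 64.0 and 44.5 (-0.53) and 1431352_s_at read 47.0 and 41.4 (-0.18). The fifth, 1450541_at, read 62.8 and 60.5 (-0.056) and turned to 0.049, 0.035 and 0.024 under median scaling, quantile normalization and loess. The SD over the 5 was 0.38, above the 0.28 between probe sets of a gene in general, and 3 of the 5 signals with GapmeR AK156230 were below the array median.

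Dleu2 gave the only member probe sets past 2-fold, and they were dim. Probe set 1427411_s_at read 33.7 and 12.1, a log2 ratio of -1.48 or 2.80-fold lower, and 1427410_at read 31.2 and 12.9, a log2 ratio of -1.27 or 2.41-fold lower. The third, 1456145_at, read 35.8 and 36.2 (0.015). The ratios of the 3 probe sets thus split, with 2 low and 1 near 0. Adding the 25th percentile of all signals (24.3) to each signal reduced the 2 ratios to -0.67 and -0.57, short of 2-fold. No detection calls were used, so whether these signals were above background is not known.

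Miat differed in sign between its probe sets. Probe set 1455325_at read 112 and 119 (0.087), and 1458903_at, below both medians, read 54.2 and 40.7 (-0.41). The mean of both log2 ratios was -0.16, so neither direction held for the gene.

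**Figure D2:**
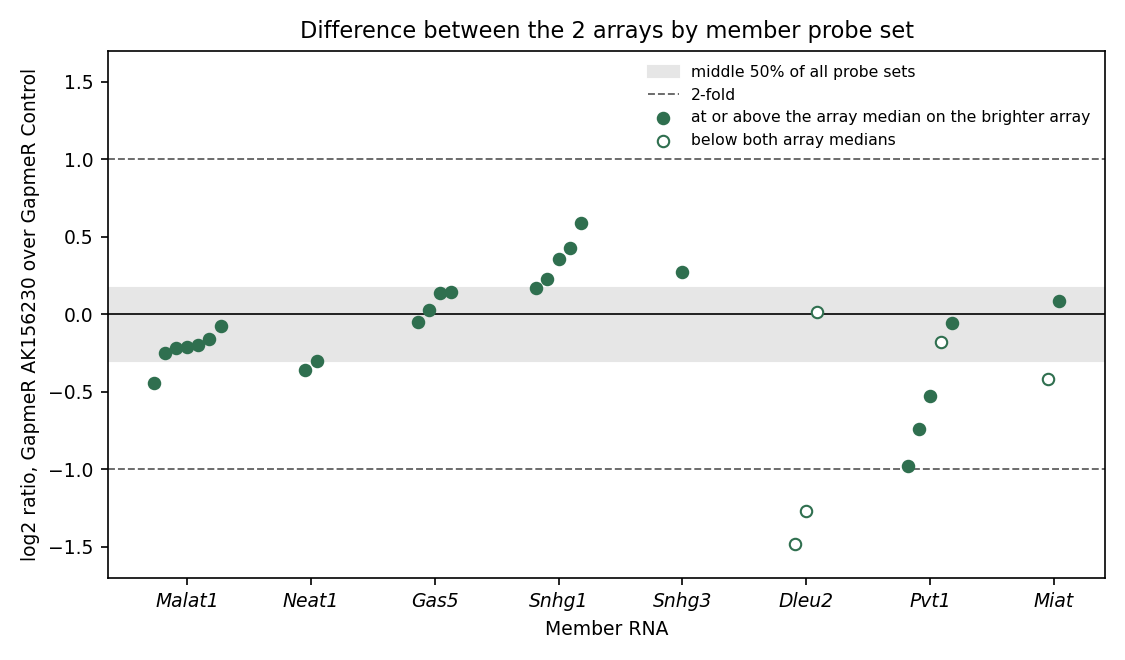
Log2 ratio between the arrays (GapmeR AK156230 over Control) of each member probe set, as filled points where the signal on the brighter array reached the array median and as open points otherwise. The grey band is the middle 50% of all probe sets and dashed lines mark 2-fold. All Snhg1 and Snhg3 points lie above 0, all Malat1, Neat1 and Pvt1 points below it (1 of Malat1 and 1 of Pvt1 turn above 0 with the arrays scaled to the same median), and 2 open Dleu2 points lie beyond the lower 2-fold line.

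Genomic length differed between the classes and went with the ratio over the array as a whole. Among bright genes under 5 kb, the class of Gas5, Snhg1 and Snhg3, the median log2 ratio was -0.052 over 1629 genes. Among those of 5 to 10 kb, the class of Malat1, it was 0.016, and among those of 10 to 20 kb and 20 to 40 kb, the classes of Miat and Neat1, it was -0.0020 and -0.013. Genes of 40 to 80 kb, the class of Dleu2, had a median of -0.087. Of the 779 genes of 160 kb and more, the class of Pvt1, 84.2% were below 0 and 25.4% were lower by 2-fold or more, with a median of -0.43. The value of Pvt1, -0.74 at its brightest probe set, was below this median. At the brightest probe set the 3 snoRNA hosts lay above the median of their class, as did Miat (0.087) and the dim Dleu2 (0.015). Malat1 and Neat1 lay below the medians of theirs. The part of gene length in the members' values was not tested.

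**Figure D3:**
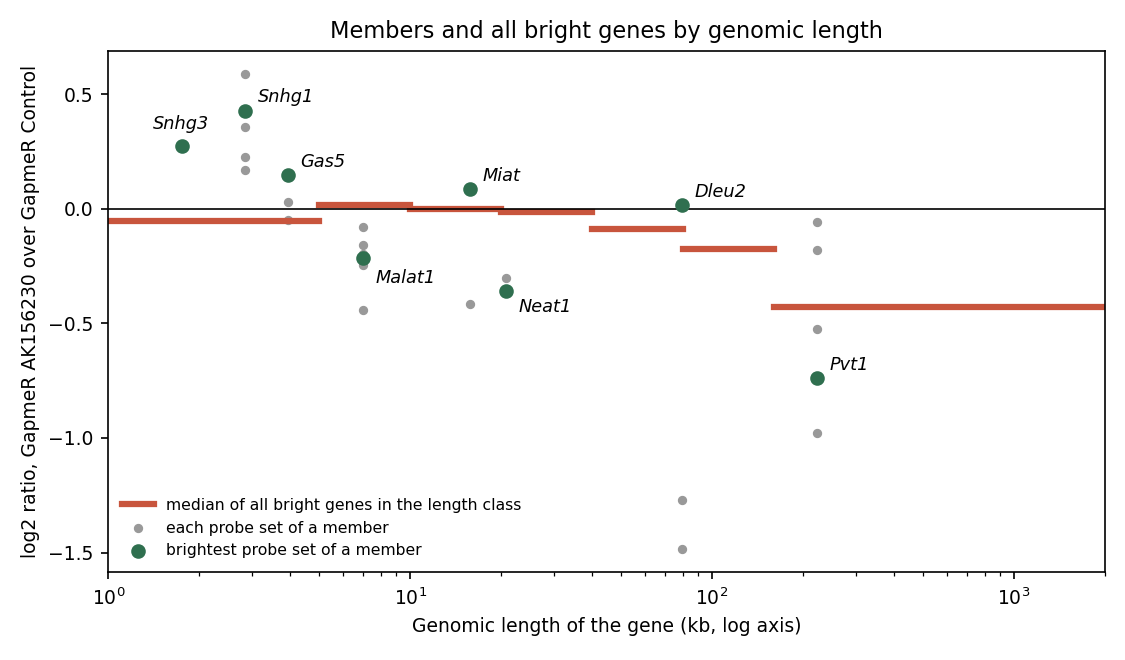
Log2 ratio between the arrays (GapmeR AK156230 over Control) against genomic length (log axis), with a green point for the brightest probe set of each member, grey points for its other probe sets and a red line for the median of all bright genes in each length class. The first class starts at 0 and the last has no upper limit. The red line lies at -0.43 for genes of 160 kb and more, where Pvt1 is, and near 0 for genes under 40 kb.

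Other noncoding hosts of snoRNAs, 14 of 18 listed, were mostly higher as well. Of the 14, 11 had a log2 ratio above 0, none was past 2-fold, and the median was 0.29, beside 41.2% above 0, 1.59% higher and 3.85% lower by 2-fold or more, and a median of -0.074 among the 18193 named genes. The examples here and in the next paragraphs were picked after their values were seen. Zfas1 read 1240 and 1914 (0.63), Snhg8 609 and 912 (0.58), and Snhg16 111 and 159 (0.52). The 3 below 0 were Snhg10 (-0.047), Snhg18 (-0.20) and the dim Snhg11 (-0.45). With the arrays scaled to the same median the list stood at 0.39, and Snhg10 turned to above 0.

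Protein-coding genes that host snoRNAs stood between these and the other genes. Of 28 measured, 19 were above 0, none was past 2-fold, and the median was 0.13. Eif4a2, a translation initiation helicase, read 1547 and 2554 (0.72), and Taf1d, a subunit of the RNA polymerase I initiation factor SL1, read 412 and 619 (0.59). Nop56, a core protein of box C/D snoRNPs and itself a host, read 563 and 775 (0.46). A further list of ribosomal protein and translation genes shares no gene with the host list, and whether its genes hold snoRNAs was not checked. Its 22 measured genes lay from -0.042 to 0.12 with a median of 0.020. Of the 22, 16 (72.7%) were above 0, against 67.9% of the protein-coding hosts.

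Proteins that bind and mature snoRNAs were mostly above 0 too. Of 17 measured, 14 were above 0 with a median of 0.21, and none was past 2-fold. Znhit3 read 210 and 336 (0.68), Znhit6 606 and 958 (0.66), and Rrp9, a U3 snoRNP protein, 297 and 457 (0.62). Other core proteins were nearer 0, with 1451 and 1550 for the methyltransferase Fbl (0.095) and 1563 and 1524 for Nop10 (-0.036), and the assembly factor Pih1d1 was lower (442 and 334, -0.40).

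**Figure D4:**
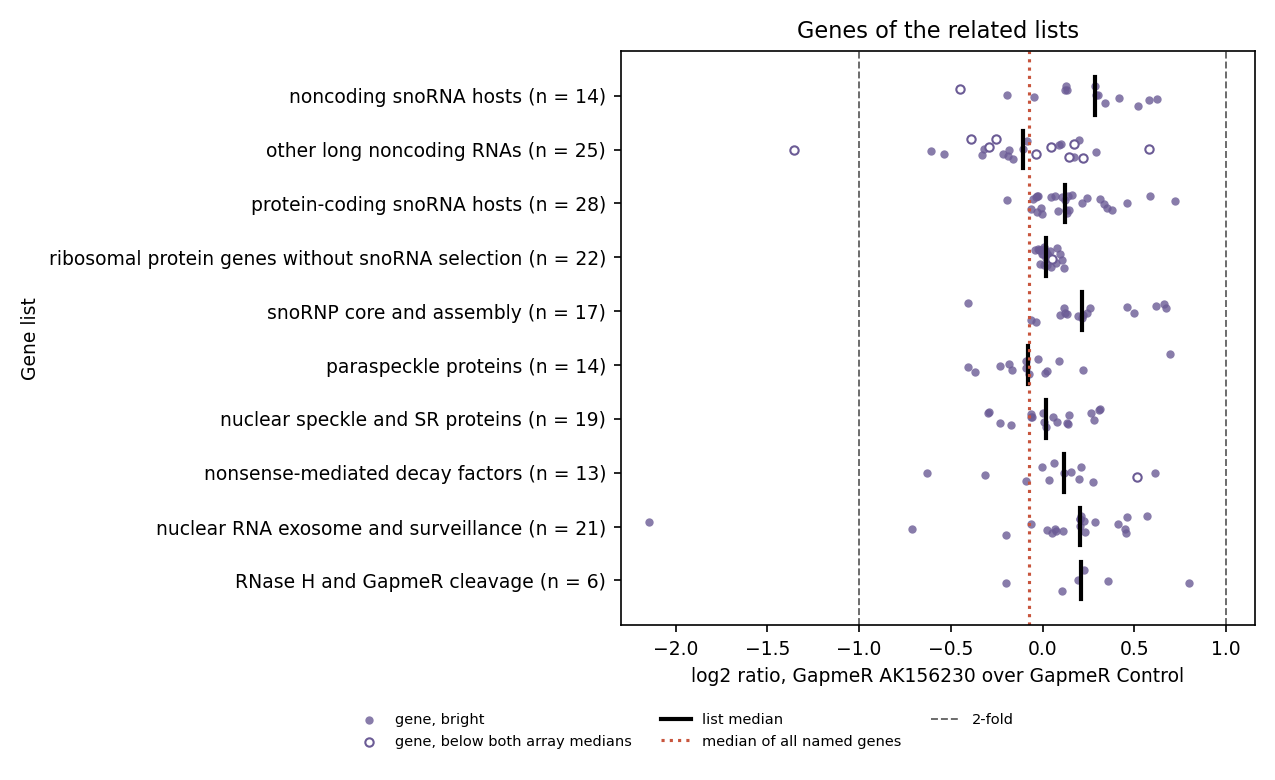
Log2 ratio between the arrays (GapmeR AK156230 over Control) of the genes of 10 lists, 1 point per gene at its brightest probe set, filled where bright, with the median of each list as a black bar, a dotted line at the median of all named genes (-0.074) and dashed lines at 2-fold. The noncoding snoRNA hosts (median 0.29) and the snoRNP proteins (0.21) lie mostly to the right of the dotted line. So do the lists of the nuclear exosome (0.21) and of RNase H and GapmeR cleavage (0.21). Zcchc7, of the exosome list, is the point at the far left.

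The other listed long noncoding RNAs, some of which, such as Rian (1680 and 1474, -0.19), also carry snoRNAs, were spread on both sides of 0. Of 25 measured from a list of 39, 10 were above 0 and the median was -0.11, which became -0.0003 with the arrays scaled to the same median. Meg3, an imprinted RNA, read 4339 and 2990 (-0.54), Norad, which binds Pumilio proteins, 2222 and 2548 (0.20), and Tug1 771 and 825 (0.098). The only one past 2-fold was Lockd, transcribed beside Cdkn1b, at dim signals of 21.6 and 8.44.

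The protein partners of Neat1 and Malat1 showed no common direction. Of 14 paraspeckle proteins 5 were above 0 with a median of -0.081, which turned to 0.024 with the arrays scaled to the same median. Nono, which with Sfpq coats Neat1, read 2720 and 2110 (-0.37), Sfpq 814 and 716 (-0.18), and their relative Pspc1 177 and 286 (0.69). Of 19 speckle and SR proteins 12 were above 0 with a median of 0.021, and neither list held a gene past 2-fold.

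Of 13 nonsense-mediated decay factors 9 were above 0 (median 0.12, but -0.020 with averaged probe sets), with 132 and 202 for the helicase Upf1 (0.61) and 469 and 303 for the kinase Smg1 (-0.63). Of 21 genes of the nuclear exosome and its cofactors 17 were above 0 (median 0.21). Zcchc7 is a subunit of the TRAMP complex that feeds RNAs to the exosome. Cell markers aside, it was the only bright list gene past 2-fold. The brightest of its 3 probe sets read 321 and 72.7, 4.42-fold lower. Of 6 genes for RNase H and the exonucleases that finish GapmeR cleavage 5 were above 0 (median 0.21). Rnaseh1 itself, which cuts the RNA paired with a GapmeR, read 146 and 127 (-0.20).

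The named neighbours of the members did not share their direction throughout, and none was past 2-fold. Myc, 47.6 kb from Pvt1, read 233 and 327 (0.49) while Pvt1 was lower. Slc3a2, an amino acid transporter subunit 0.118 kb from Snhg1, read 975 and 774 (-0.33), the reverse of Snhg1, and Wdr74 on its other side read 526 and 622 (0.24), with Chrm1 at 0.17 and Stx5a at -0.025. Around Malat1 and Neat1, Frmd8 read 286 and 435 (0.60), Ltbp3 493 and 319 (-0.63) and Znrd2 335 and 498 (0.57), and Slc25a45 was at -0.091. Near Snhg3, Rcc1 read 139 and 172 (0.31), Phactr4 583 and 766 (0.39) and Trnau1ap 282 and 465 (0.72), in the direction of Snhg3, while Med18 read 337 and 287 (-0.23). Zbtb37, which overlaps Gas5, read 49.5 and 67.9 (0.46), and beside it Cenpl (0.39) and Klhl20 (0.10) were above 0, while Serpinc1, an inhibitor of blood clotting below both array medians, read 34.9 and 21.3 (-0.71). Trim13, which overlaps Dleu2, read 154 and 177 (0.20), and Spryd7 read 181 and 146 (-0.31), with Rnaseh2b at 0.19 and the dim Dleu7 at 0.086. The other neighbours of Pvt1 were Macroh2a3, which overlaps it, at -0.053, 4930402D18Rik at -0.26 and Gm20740 at -0.47. Beside Miat, Mn1 was at -0.053 and Crybb1 at 0.015, and the dim Cryba4 and C130026L21Rik were at -0.30 and -0.29.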

How the data were processed

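The signals of 2 arrays were compared, 1 per condition, and no p-value was computed. The deposited intensity values are MAS5 probe set signals that the authors made with Affymetrix software on a linear scale, and of MAS5 neither the version nor the target of the scaling is stated in the sources. A porcine array is named in the methods, while labels and probe set identifiers are mouse, and the mouse annotation was used (34945 probe sets with 1 symbol, 932 with several, 9160 with none). Symbols were updated through the Entrez ID for 34741 probe sets. Positions, lengths and sequences are RefSeq's for GRCm38.p6, the assembly that the paper's supplementary annotation cites. All 8 members had a probe set and all 8 had a position, while 6 had a start window among the sequences used. Neat1 and Pvt1 had none.

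Log2 ratios were taken without offset (Python 3.11.15, pandas 2.3.3, numpy 2.4.6), and each gene was represented by its brightest probe set (mean of both log2 signals). The methods name SAM, a test for groups of arrays, which 1 array per condition does not allow, and the number of arrays limits the precision. Alternatives were quantile normalization, scaling to the same median, loess (statsmodels 0.14.6, span 0.3), an offset of 24.3, minimum signals, thresholds of 1.5-fold and 3-fold, averaging a gene's probe sets, and dropping probe sets ending in _x_at or _s_at. The ratio script was checked on simulated data. Members and gene lists were chosen with earlier results of these data known. Named were every member probe set and the nearest 2 named genes on each side of a member. Cell markers aside, list genes past 2-fold with bright signal were named too. Further list genes were picked after their values were seen.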

Additional observations from a re-analysis of the deposited data

How the results depend on the processing

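With 1 array per condition, no replicate could be left out. No paired analysis was possible because the groups share fewer than 2 replicate numbers. Every alternative was run, and 11 of 274 values moved by over 0.28 on the log2 scale or, for counts, by over 1.5 times. Scaling to the same median adds 0.11 to every log2 ratio, so it could not move a ratio by over 0.28. The 2 Dleu2 ratios, the only member ratios past 2-fold, did not change sign. Of the 29 member probe sets, 3 took the other sign with median scaling, 1 with quantile normalization and 1 with loess. The count of member probe sets lower by 2-fold or more, 2, was 2 under the 3 scalings and with a minimum signal at the 25th percentile. It was 0 with an offset of the 25th percentile, with a minimum at the 50th or 75th percentile of the brighter array and at a threshold of 3-fold, 1 without _x_at and _s_at probe sets, and 4 at 1.5-fold. The count of those higher, 0, was 1 at 1.5-fold (Snhg1). Dleu2 moved from 0.015 at its brightest probe set to -0.91 as the average of its 3. Miat changed sign, from 0.087 to -0.16, which is a change of less than 0.28. With averaged probe sets the median of the paraspeckle proteins turned to 0.020 and that of the nonsense-mediated decay factors to -0.020. The medians of the noncoding snoRNA hosts stayed from 0.23 to 0.39, and those of the snoRNP proteins from 0.20 to 0.32. Signals below an array median (54.8 and 51.0) limit the ratios of Dleu2, of 3 Pvt1 probe sets and of the second probe sets of Neat1 and Miat.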

Other observations

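Over all 1458 genes annotated as long noncoding RNA the median log2 ratio was -0.12, with 34.2% above 0, beside -0.069 and 41.8% for 16473 protein-coding genes. Of the long noncoding RNA genes 11 were higher and 10 lower by 2-fold or more (0.754% and 0.686%), against 1.68% and 4.17% of the protein-coding genes. Among the 413 bright ones 4 were past 2-fold, each read by 1 probe set and named here after their values were seen. Dubr, an RNA transcribed beside Dppa2, read 398 (GapmeR Control) and 136 (GapmeR AK156230) and was 2.93-fold lower, and LOC102631979 read 349 and 141 (2.48-fold lower). Gm17501 read 48.4 and 122 (2.52-fold higher) and 4933401H06Rik 48.1 and 109 (2.26-fold higher). Both of the latter were below the array median with GapmeR Control.

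Runs of C and T at the annotated start are given as a description without a test. Of 16 windows of 15 listed noncoding snoRNA hosts, members not included, 56.3% had a run of 5 or more in the first 20 bases. The share was 50% of 30 windows of protein-coding hosts and 58.6% of 29 windows of the ribosomal protein and translation genes. Among all windows it was 32.8%. Runs of 8 or more were in 6.25% of these few noncoding host windows, 13.3% of protein-coding host windows and 24.1% of ribosomal protein and translation gene windows. Among all windows the share was 6.74%. A first base C with a run of at least 5 was in 12.5%, 6.67% and 27.6% of the 3 lists in this order, and in 2.51% of all windows.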
